A study of Mus musculus with 3 samples.

Results

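Motile cilia are beating, hair-like projections built around an axoneme, a cylinder of microtubule doublets that carries dynein motor arms, radial spokes and, at its core, a central pair of microtubules. In the brain, bundles of them stand on ependymal cells, which line the ventricles, and choroid plexus epithelial cells, which secrete cerebrospinal fluid, also carry tufts of cilia. The transcription factors Foxj1 and the RFX family switch on the genes of the axoneme, and multicilin (Mcidas) acts upstream of them when a cell commits to making many cilia. The 43 genes described here were chosen by symbol from a list of such components and regulators, with no level or fold in the rule. All 43 were among the 21750 features of the count table.

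The data are 1 single-cell RNA library from the hippocampus of 5 pooled mice. The mice carried Aldh1l1CreERT2, a tamoxifen-inducible recombinase driven by an astrocyte promoter, and the Rosa26-LSL-tdTomato reporter. They received AAV-TIGRi-Hopx, a Cre-dependent virus against Hopx with an EGFP reporter, and were sampled 3 weeks after tamoxifen. Cells positive for both reporters were enriched by sorting, so the shares of cell types in the library follow from the dissection and the sort. A library without the virus was not analysed here, nor were the study's anti-Flag and IgG chromatin samples, and no barcode could be traced to a mouse. The 6672 barcodes were all distinct and held 41915122 UMIs (unique molecular identifiers, each a count of 1 captured RNA). After removal of 187 barcodes, 6485 remained with a median of 5564 UMIs. Levels are in CPM, the UMIs of a gene or group of genes per 1000000 UMIs of the cells concerned. With 1 library there is no replicate and no test. Every interval below is an exact 95% interval (Poisson for levels, binomial for ratios, Clopper-Pearson for shares of cells) and covers counting error only.

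Cell types were gated on genes outside the list. Ependymal cells had at least 5 UMIs of Rarres2, under 2% of their UMIs in Ttr and at most 2 of C1qa, and 543 barcodes met this. Choroid plexus cells had at least 5% of their UMIs in Ttr, the transthyretin gene, and numbered 657. The choroid plexus gate set no limit on Rarres2 or C1qa. Every gate that follows took only barcodes with at most 4 UMIs of Rarres2 and under 2% of UMIs in Ttr. Myeloid cells, marked by at least 5 UMIs of C1qa, numbered 2954, and 1005 were endothelial. The astrocyte gate held 141, the oligodendrocyte gate 83 and the B cell gate 40. The neuron gate held 24, the T or NK cell gate 22 and the mural gate 19. All 5 ependymal markers that neither the gate nor the list used (Mia, Calml4, Nnat, Cd24a and Sntn) were present in the ependymal cells, with a summed level of 4659.4 CPM against 17.1 in myeloid and 1046.3 in choroid plexus cells. Most of the choroid plexus level was Calml4, which was higher there (981.3) than in ependymal cells (445.9). Sntn, although outside the list, is itself a cilium gene, and neurons also express Nnat and Cd24a. When all barcodes were clustered without the 43 genes, 530 of the 543 fell in ependymal clusters, 11 in myeloid and 2 in astrocyte clusters. Just inside the gate, 45 barcodes with 5 or 6 UMIs of Rarres2 had a summed level of the 43 genes of 17432 CPM. Just outside, 64 barcodes with 3 or 4 had 16240.0, and the 2037 with 0 to 2 had 609.5.

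The 43 genes made up 2.12% of all UMIs of the ependymal cells, a summed level of 21214 CPM (21069 to 21359). An ependymal cell held 151.7 such UMIs on average, and UMIs from a median of 35 of the 43 genes. The next highest level among gates of more than 24 barcodes was in choroid plexus cells, at 1564.9 CPM (1537 to 1593). Astrocytes followed with 1098.7 (1015 to 1187) and oligodendrocytes with 829.2 (760.9 to 902.0). Neurons stood at 490.8 and B cells at 392.3, on 51 and 94 UMIs. Endothelial cells (203.3, 190.4 to 216.7) and myeloid cells (158.2, 152.7 to 163.8) were lowest of the large gates. The intervals of the ependymal, choroid plexus, astrocyte and oligodendrocyte levels did not overlap, while those of neurons and B cells did. The T or NK level of 1808.8 rested on few barcodes: 118 of its 179 UMIs came from 1 of the 22, and without that barcode it was 674.2.

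Some low levels were carried by single barcodes rich in these genes. In astrocytes 4 barcodes with at least 20 such UMIs held 32.5% of the UMIs, and the level without them was 770.8 CPM. In myeloid cells 10 such barcodes held 22.7%, and the level without them was 122.8. Scrublet called 8 of these 10 doublets, and 0 of the 4 in astrocytes. The share of these barcodes that are mixed droplets was not tested beyond that call. Droplets can also hold free RNA from broken cells, so the myeloid level serves below as the background measured in a cell type not known for motile cilia. The myeloid gate left out barcodes with more than 4 UMIs of Rarres2 and the choroid plexus gate did not, so these gates were not filtered alike.

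**Figure D1:**
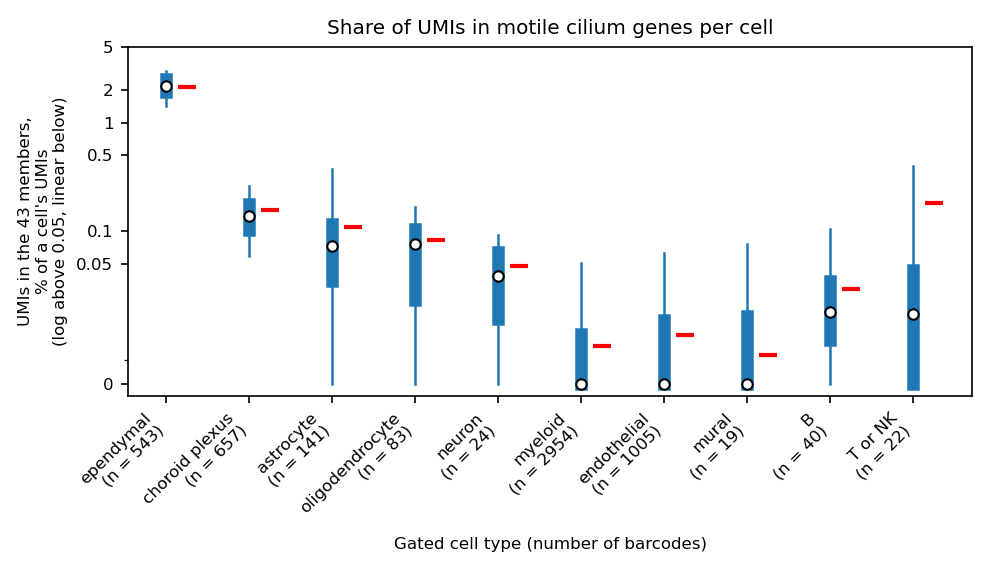
Share of each barcode's UMIs that falls in the 43 genes, by gated cell type (y axis in %, logarithmic above 0.05 and linear below). Circles are medians over barcodes, thick bars the middle 50%, thin lines the 5th to 95th percentile, and red ticks the pooled share. The ependymal median of 2.19% stands above every other gate, and the T or NK tick lies far above its median because 1 barcode holds most of its UMIs.

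Each gene measured was far higher in ependymal than in myeloid cells. A gene counted as measured from 10 UMIs over both groups, which 42 of the 43 reached. All 42 were at least 4-fold higher and 0 were at least 4-fold lower, against 26.3% and 12% of the 14216 features measured in the same way. The median log2 ratio was 7.89, against 0.55 over all features. The ratio of summed levels was 134.1 (129.4 to 139.0), and 58.5 with clusters in place of gates. Single ratios ran from 12.9 (11.8 to 14.0) for Rfx3, which myeloid cells also held, to 711.0 (241.6 to 3462) for Dnai2, which rested on 3 myeloid UMIs. Because most of these genes' UMIs are ependymal, passing the minimum of 10 favoured genes high there, and the count is a description.

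Among the regulators, Foxj1, the forkhead factor of the motile cilium programme, had 2081 UMIs in ependymal cells, a level of 535.8 CPM (513.0 to 559.3). It was seen in 91.5% of ependymal cells and in 64.1% when each cell was thinned to 2000 UMIs. In myeloid cells of like depth (medians of 6228 and 6267 UMIs) it was seen in 0.643%. Rfx3 stood at 482.0 (460.4 to 504.3) in ependymal cells and its relative Rfx2 at 115.9 (105.4 to 127.1). Mcidas, a regulator of the commitment step, had 3 UMIs in the ependymal cells and 0 in every other gate. It was below the minimum of 10 UMIs and enters no ratio.

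The 8 dynein genes summed to 4261.9 CPM in ependymal cells. Of these, 4 heavy chains were highest: Dnah12 and Dnah6 of the inner arms had 967.3 (936.6 to 998.7) and 667.6 (642.1 to 693.8). Dnah11 and Dnah9 of the outer arms had 656.0 (630.8 to 682.0) and 605.8 (581.6 to 630.8). The outer-arm intermediate chain Dnai2 had the fewest UMIs of the group, at 107.9 (97.8 to 118.7). These are 3'-end UMI counts and capture can differ between genes, so the order of levels among genes is that of captured RNA. Dnah11 and Dnah6 did not differ beyond their intervals.

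The 10 genes of the radial spoke and central pair group, which include the adenylate kinase Ak7, had the highest summed ependymal level of the 5 groups, 5963.2 CPM. Spag16 (955.4, 924.9 to 986.7) and Cfap54 (927.6, 897.6 to 958.4), both of the central pair apparatus, overlapped in their intervals. Ak7 followed at 843.9 (815.3 to 873.3) and the spoke-head gene Rsph1 at 737.3 (710.6 to 764.9). Another spoke-head gene, Rsph9, was lowest at 235.6 (220.6 to 251.3).

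The 14 CFAP, ruler and nexin-dynein genes (CFAP stands for cilia and flagella associated protein) summed to 4746.2 CPM. Cfap44 (658.8, 633.5 to 684.9) and Cfap43 (579.3, 555.6 to 603.7), which help tether inner dynein arms, were highest. Ccdc39, which with Ccdc40 forms the ruler that spaces the repeats of the axoneme, had 469.9 (448.5 to 491.9), and Cfap69 had 431.8 (411.3 to 452.9). Cfap53, which lies inside the microtubule doublets, was lowest at 119.2 (108.6 to 130.6).

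The 7 tektin and other ciliary genes summed to 5108.4 CPM, most of it from Tmem212 and Ccdc153. Tmem212 was the highest of all 43 at 2052.7 (2007.9 to 2098.2) and Ccdc153 was next at 1565.6 (1526.5 to 1605.4). Each was seen in 538 of the 543 ependymal cells. Tppp3, a tubulin-binding protein, stood at 548.4 (525.3 to 572.2) and Enkur at 479.4 (457.9 to 501.7). Tekt2, a tektin of the doublet wall, was lowest at 20.6 (16.3 to 25.6), on 80 UMIs.

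**Figure D2:**
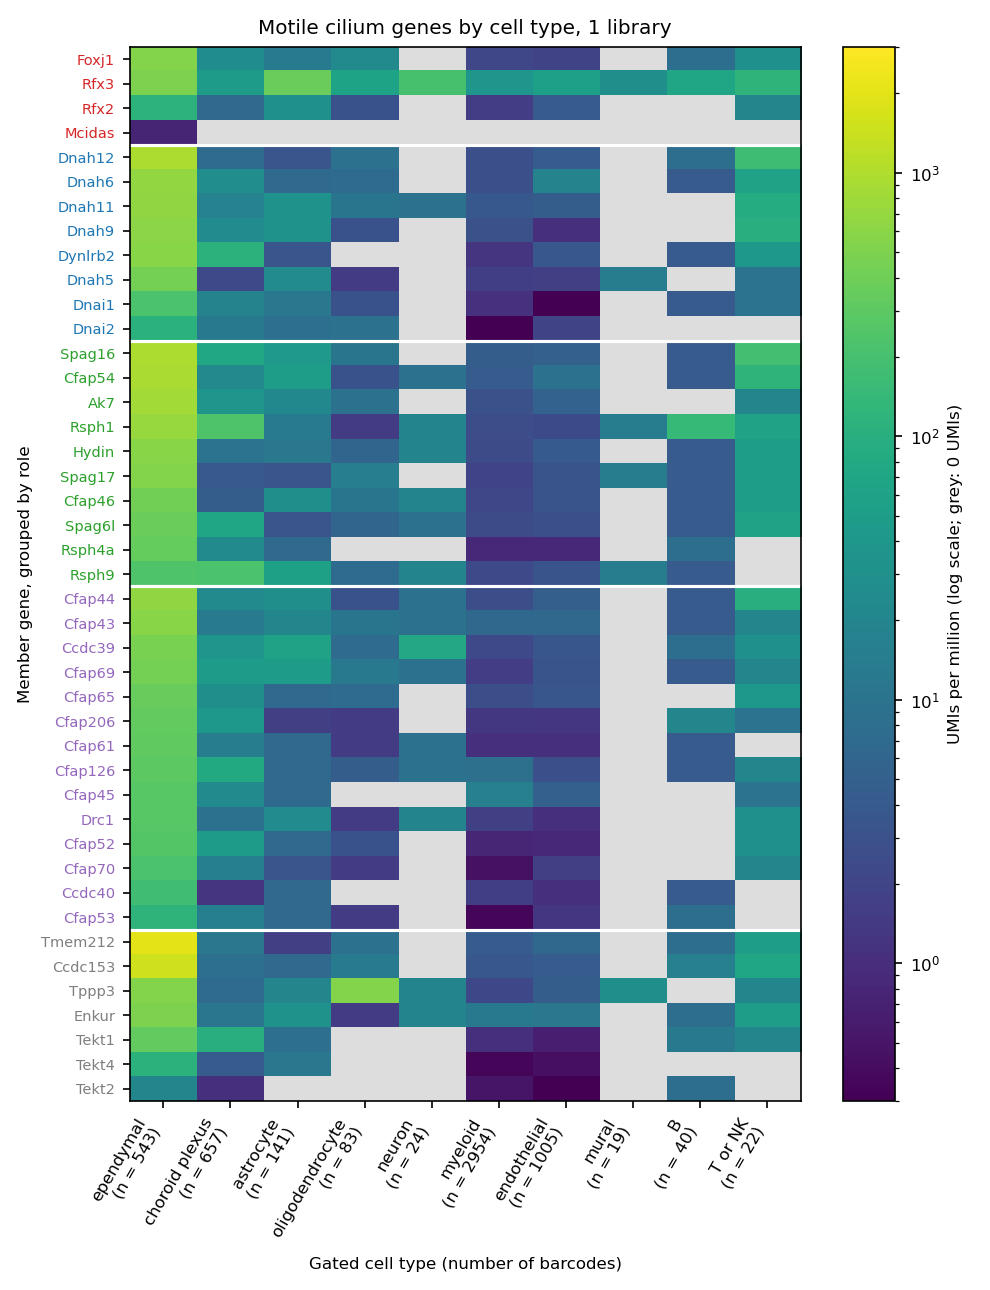
Level of each of the 43 genes (rows, coloured by role) in each gated cell type (columns, with the number of barcodes), in CPM on a logarithmic colour scale, with grey for 0 UMIs. The ependymal column is bright for every gene but Tekt2 (20.6) and Mcidas (0.772), Rfx3 is bright in astrocytes (363.9) and Tppp3 in oligodendrocytes (543.7).

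The genes were detected together in almost every ependymal cell. The share of a cell's UMIs in the 43 genes ran from 0.0773% to 4.08%, with a median of 2.19% and 5th and 95th percentiles of 1.42% and 2.97%. At least 30 of the 43 were seen in 494 of the 543 cells, and fewer than 10 in 1 cell. Deeper cells gave a smaller share to these genes: the summed level was 24173, 22551, 21578 and 19544 CPM in 4 classes of equal size from the shallowest to the deepest. With every cell thinned to 2000 UMIs, the variance of a gene's UMIs over cells was set against its mean. The quotient was 0.984 for Dnai2 (mean of 0.239 UMIs) and up to 1.45 for Tmem212 (mean of 4.1). Counting alone gives a value near 1. The quotient grows with the mean at equal relative spread, so it does not rank genes by how variable they are.

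Known targets of the RFX factors carry an X-box, an inverted repeat, near their start. The promoter table of RefSeq (GRCm38.p6, 250 bases before to 50 after each start) held 34 of the 43 genes. Of the 34, 0 held the full X-box (a palindrome, so the same on both strands), against 0.529% of all 27025 genes. The X-box arm GTTGCCA, on either strand, was in 5 (14.7%, against 5.02%), and the forkhead motif TGTTTAC in 2 (5.88%, against 4.05%). The letters CCAAT, searched as a control string, were in 14 (41.2%, against 41.1%). A looser X-box, which leaves 1 further letter of either arm free and was searched on both strands, was in 7 (20.6%, against 0.936% of all genes). This form was chosen after the other strings had been searched, so its share has no test, and it can overlap the arm. The 7 sites are printed with 8 bases on either side to show how alike they are, 5′ to 3′ on the strand of the gene, with the looser X-box in capitals.

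Cfap44: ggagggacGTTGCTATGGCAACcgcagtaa

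Cfap45: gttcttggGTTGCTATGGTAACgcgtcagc

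Cfap61: gccgcgtcGTTTCCTTAGCAACtgtgtgcg

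Enkur: tagcaactGTTTCCTTAGCAACcacgtggt

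Hydin: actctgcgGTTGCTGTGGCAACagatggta

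Spag16: ggcaacgcGTTGCCGTAGTAACtgcggacg

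Tekt4: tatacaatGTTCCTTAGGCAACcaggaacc

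Coordinates of the printed stretches are of GRCm38.p6. Cfap44 lies on the plus strand at chr16:44394764-44394793, Cfap45 on plus at chr1:172521103-172521132 and Cfap61 on plus at chr2:145934768-145934797. Enkur lies on the minus strand at chr2:21205356-21205385, Hydin on plus at chr8:110266948-110266977, Spag16 on plus at chr1:69826859-69826888 and Tekt4 on plus at chr17:25471582-25471611. The first capital stands 8 to 27 bases before the annotated start in 5 of them, 103 before it in Spag16, and at the start itself in Tekt4. A match describes the letters only, and factor binding was not measured in these cells.

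In choroid plexus cells the genes were present at a lower level and unequally. Of 42 measured genes, 29 were at least 4-fold higher than in myeloid cells (16.1% of 13875 features were) and 0 were at least 4-fold lower (24.3%). The median log2 ratio was 3.21, against -0.41 over all features. The ratio of summed levels was 9.89 (9.51 to 10.3), or 17.0 counted per cell. It was 9.15 in choroid plexus barcodes without UMIs of Rarres2 or Nnat, with the myeloid gate unchanged. With clusters in place of gates only 17 genes were at least 4-fold higher and the summed ratio was 4.29. The choroid plexus level was then 1563.2 CPM, against 1564.9 with gates, so the lower ratio came from a higher level in the myeloid clusters. Why that level was higher was not tested. Of the 29, 8 were among the 10 spoke and central pair genes, 11 among the 14 CFAP genes, 6 among the 8 dynein genes, 2 among the 3 regulators measured and 2 among the 7 tektin and other genes.

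The largest choroid plexus ratios to myeloid cells belonged to Rsph9 (98.1, 73.0 to 135.0), Tekt1 (94.7, 61.5 to 153.9) and Dynlrb2, a dynein light chain (91.7, 61.2 to 144.0). Rsph1 (89.5, 68.1 to 119.9) and Dnai2 (83.0, 27.6 to 409.6) came next. At the other end Dnah5, the outer-arm heavy chain, had 17 UMIs in choroid plexus cells and a ratio of 1.35 (0.705 to 2.49), which was not distinguishable from the myeloid level. Ccdc40 (0.715, 0.301 to 1.53) and Enkur (0.909, 0.702 to 1.17) were likewise not above it. For Enkur the myeloid level is a poor measure of background. Without the 10 myeloid barcodes rich in these genes it was 11.6 CPM, against 2.08 for Tmem212, the highest gene of ependymal cells. In choroid plexus barcodes without UMIs of Rarres2 or Nnat, Enkur kept 58 UMIs (9.99 CPM), Dnah5 3 and Ccdc40 2. Whether choroid plexus Enkur exceeds free RNA was not tested.

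Set against ependymal cells, choroid plexus cells had 41 of the 42 measured genes at least 2-fold lower and 0 at least 2-fold higher. Of all 13401 features, 51.0% were lower and 11.4% higher by that margin. The ratio of summed levels was 0.0738 (0.0724 to 0.0752), or 0.118 counted per cell, and the median log2 ratio -4.27 against -1.04 over all features. The exception was Rsph9, with 223.2 CPM in choroid plexus cells (1684 UMIs) and 235.6 in ependymal cells (915 UMIs), a ratio of 0.948 (0.874 to 1.03). Counted per cell, Rsph9 had 2.56 UMIs in choroid plexus and 1.69 in ependymal cells, whose median depths were 11050 and 6228.

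After Rsph9 the highest ratios were those of Rsph1 (0.325, 0.307 to 0.345), Tekt1 (0.304, 0.277 to 0.332), Cfap126 (0.278, 0.252 to 0.307) and Cfap52 (0.188, 0.166 to 0.212). Dynlrb2 (0.188, 0.173 to 0.203) and Spag6l (0.182, 0.164 to 0.201) were close behind. These genes were detected widely: Rsph1 in 83.6% and Rsph9 in 81.7% of choroid plexus cells, Dynlrb2 in 63.0%, Tekt1 in 61.8% and Cfap126 in 56.3%. With cells thinned to 2000 UMIs the shares were 36.0% for Rsph1, 32.7% for Rsph9, 18.6% for Dynlrb2 and 19.5% for Tekt1. Foxj1 was 20.3-fold lower in choroid plexus cells, at 26.4 CPM (22.8 to 30.3).

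The lowest ratios were those of Dnah5 (0.00513, 0.00298 to 0.00823), Ccdc153 (0.0055, 0.00424 to 0.00702), Tmem212 (0.00588, 0.00472 to 0.00722), Ccdc40 (0.00661, 0.00301 to 0.0126) and Spag17 (0.00732, 0.00493 to 0.0105). Tmem212 stood at 2052.7 CPM in ependymal and 12.1 in choroid plexus cells, and Dnah5 at 439.5 and 2.25. The 5 ependymal markers outside the list were themselves spread: Nnat was at 0.00618, Sntn at 0.00699 and Cd24a at 0.00894, but Mia was at 0.256 and Calml4 at 2.20, higher in choroid plexus cells. The Nnat value rests on few barcodes, since 5 of them held 122 of its 145 choroid plexus UMIs.

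Choroid plexus barcodes with UMIs of Rarres2 or Nnat, which are abundant in ependymal cells, could be set aside, although this does not remove all ependymal RNA. In the 526 of 657 barcodes with 0 UMIs of both Rarres2 and Nnat, a subset chosen after seeing the data, the summed level of the 43 genes was 1446.6 CPM. Rsph9 stood there at 224.7 (212.6 to 237.2), Rsph1 at 236.5 (224.2 to 249.4), Tekt1 at 99.5 (91.6 to 108.0) and Dynlrb2 at 107.8 (99.5 to 116.6), and the level in all choroid plexus barcodes lay within each of these intervals. Dnah5 had 3 UMIs left, Ccdc40 2, Dnah12 5, Spag17 and Ccdc153 7 each, and Tmem212 10.

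**Figure D3:**
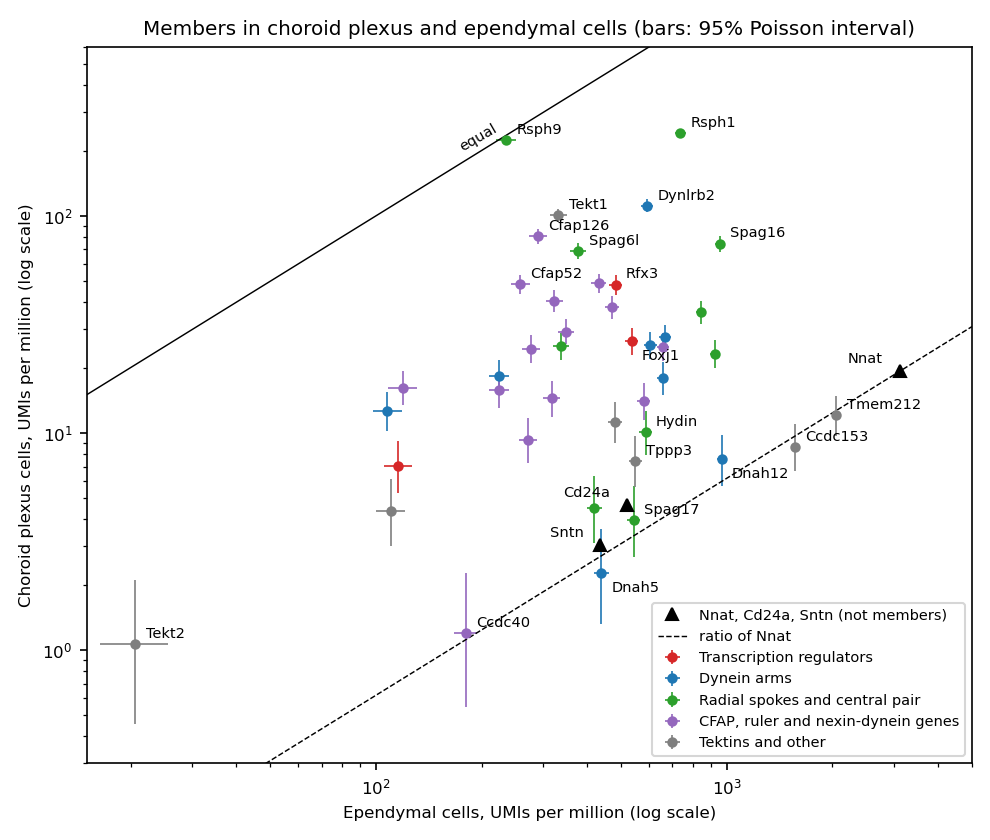
Level of each measured gene in choroid plexus cells (y axis) against ependymal cells (x axis), in CPM on logarithmic axes, with 95% Poisson intervals and colours for roles. The solid line marks equal levels and the dashed line the ratio of the ependymal gene Nnat (0.00618): Rsph9 lies at the solid line, Dnah5, Ccdc153 and Tmem212 at the dashed one, and the other genes between them.

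The median choroid plexus to ependymal ratio was 0.0826 for the CFAP, ruler and nexin-dynein genes, 0.0611 for the regulators, 0.0565 for the spoke and central pair genes, 0.0418 for the dynein genes and 0.0236 for the tektin and other genes. Within the spoke and central pair group alone it ran from 0.00732 for Spag17 to 0.948 for Rsph9. Other cilium genes outside the 43 had medians of 0.0453 (dynein arms and their assembly factors, 20 of 20 measured lower), 0.0615 (other spoke and central pair genes, 10 of 10) and 0.154 (inner microtubule genes, 13 of 13). The intraflagellar transport and BBSome genes, which non-motile cilia need as well, had a median of 0.239, with 24 of 27 at least 2-fold lower. Of all features, 51.0% were lower by that margin. Against myeloid cells, 25 of these 27 were at least 4-fold higher in ependymal cells (26.3% of all features were), with a median ratio of 11.7, below the medians of 218.6 to 291.5 of the 4 structural groups among the 43.

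Upstream of the axoneme, the multiciliation genes did not all run in the same direction. Of 13 measured, 10 were at least 2-fold lower in choroid plexus than in ependymal cells, against 51.0% of all features. Myb, a factor of multiciliated cell differentiation, had 631 UMIs in ependymal and 9 in choroid plexus cells, a ratio of 0.00734. Ccno, a cyclin-like gene of centriole amplification, had 50 and 0. Gmnc, which acts upstream of Mcidas, went the other way, with 35.8 CPM in choroid plexus (270 UMIs) and 24.5 in ependymal cells (95 UMIs), a ratio of 1.46 (1.15 to 1.87).

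Outside the ciliated epithelia, single genes of the list stood well above the rest. Rfx3 in astrocytes was at 363.9 CPM (316.6 to 416.4), seen in 90 of 141 cells, against 482.0 in ependymal cells. It was also at 202.1 in neurons (21 UMIs, 10 of 24 cells), 62.6 in oligodendrocytes, 54.5 in endothelial and 37.4 in myeloid cells. Tppp3 in oligodendrocytes was at 543.7 (488.6 to 603.2), seen in 69 of 83 cells, a level whose interval overlapped that of ependymal cells. Rsph1 in B cells was at 141.9 (98.3 to 198.3), seen in 20 of 40 cells.

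Astrocytes, the class that the Cre driver targets, held 27 of 41 measured genes at least 4-fold above myeloid cells and 1 below, against 21.1% and 15.7% of features. This comparison and those of oligodendrocytes and endothelial cells were added after the data were seen. Leaving out the 4 astrocyte and 10 myeloid barcodes rich in these genes was a choice made on these genes' own UMIs. Without them, 20 of 38 genes were above and 6 below, against 20.7% and 16.0% of features. Of those below, Dynlrb2, Cfap206, Dnah12 and Spag6l had 0 astrocyte UMIs (0 to 6.58 CPM), an interval that held their myeloid levels. Tekt2, the 1 gene below with all barcodes, also had 0 astrocyte UMIs. The astrocyte levels without the 4 were 347.9 CPM for Rfx3, 49.96 for Rsph9 and 48.2 for Ccdc39, the last seen in 24 of 137 cells. Cfap69 stood at 30.3 and Cfap54 and Dnah9 at 26.8 each. Some other genes called above rested on few UMIs in the 137 cells. Rsph4a had 2, Cfap61, Tekt1 and Ccdc40 had 3 each and Foxj1 had 4. Tmem212, the highest gene of ependymal cells, had 1 UMI in all 141 astrocytes. The ependymal gene Nnat, which neurons also express, was seen in 61 of the 141 astrocyte barcodes. In the 69 with 0 UMIs of Nnat and Rarres2 the summed level of the 43 genes was 872.3 CPM.

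In oligodendrocytes 5 of 39 measured genes (Foxj1, Cfap46, Cfap69, Spag17 and Tppp3) were at least 4-fold above myeloid cells and 7 below, against 15% and 21.1% of features. The 2 oligodendrocyte barcodes rich in these genes held 22.7% of the UMIs. Without them and the 10 myeloid ones, 3 of 36 (Foxj1, Tppp3 and Ccdc39) were above and 16 below, against 14.5% and 22.0% of features. The calls of Cfap46, Cfap69 and Spag17 were then lost. All 16 below had 0 oligodendrocyte UMIs (0 to 5.86 CPM), and only Cfap45 and Enkur had myeloid levels above that interval. A gene can be measured on myeloid UMIs alone, so the counts below are a description only. In endothelial cells 2 of 41 (Dnah6 and Dnai2) were above and 1 (Dnai1) below, against 13.9% and 13.4%. Without the 3 endothelial and 10 myeloid rich barcodes, 1 of 38 (Dnah6) was above and 2 (Ccdc40 and Dnah5) below, against 14.1% and 13.7%. Ccdc40 and Dnah5 had 1 endothelial UMI each (0.00556 to 1.22 CPM), an interval that held their myeloid levels. Dnai2 had 3 endothelial UMIs and 1 myeloid UMI left. In all endothelial barcodes Dnah6 had 85 UMIs in 72 cells, a level of 18.5 (14.8 to 22.9). In myeloid cells Cfap45 (16.7, 14.9 to 18.6, in 258 cells), Enkur (12.4, 10.9 to 14.0, in 195 cells), Cfap126 (8.9) and Cfap43 (6.73) exceeded Tmem212 (4.4), although Tmem212 was the most abundant of the 43 in ependymal cells. Without the 10 myeloid barcodes rich in these genes the levels were 16.1 for Cfap45, 11.6 for Enkur, 8.18 for Cfap126 and 5.49 for Cfap43, and Tmem212 was at 2.08. Cfap45 was at 17.3 in 1978 barcodes with microglial markers and at 20.9 (12.9 to 31.9) in 218 with markers of border macrophages, which overlapped.

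Ependymal cells held subsets by other genes. Cells with Col6a5, Nrxn3 or Krt15 numbered 192 and cells with Npy, Rspo3 or Clec3b numbered 80, with median depths of 5581 and 6802 UMIs. Of 41 measured genes, 1 was at least 2-fold higher in the first subset and 0 lower, against 5.73% and 1.85% of 6808 features. The gene was Dnai2, at 125.4 (105.9 to 147.3) against 62.5 (44.2 to 85.8), a ratio of 2.01 (1.40 to 2.95) on 147 and 38 UMIs. Its ratio was 1.8 with clusters in place of gates, 1.74 with cells weighed equally and 1.97 with thinned cells, each under the 2-fold margin. The summed levels were 21080 and 22955 CPM, a ratio of 0.918 (0.899 to 0.938). Lowest in the first subset were Rsph1 (0.653, 0.587 to 0.727), Tmem212 (0.671, 0.629 to 0.716), Dynlrb2 (0.69, 0.611 to 0.78) and Ccdc153 (0.752, 0.698 to 0.81). Foxj1 was at 506.6 and 535.9, a ratio of 0.945 (0.824 to 1.09).

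Ependymal cells were also split by RNA of EGFP, the reporter of the virus, since the design compares transduced with non-transduced cells of the same sample. EGFP UMIs were found in 39 of 543 ependymal cells, 7.18% (5.16 to 9.69), against 1 of 2954 myeloid cells, 0.0339%, at like depth. Shares in other gates were 8.33% in neurons (2 of 24 cells), 4.82% in oligodendrocytes, 2.13% in astrocytes and 1.07% in choroid plexus cells. Endothelial cells had 0.0995%, and the mural, B and T or NK gates had 0. Of the 39 EGFP-positive ependymal cells, 3 had a tdTomato UMI. The target Hopx stood at 71.7 CPM (45.9 to 106.7, on 24 UMIs) in the EGFP-positive and at 153.5 (140.9 to 167.0) in the 504 EGFP-negative ependymal cells, a ratio of 0.467 (0.297 to 0.702). The subsets were unequally represented: 16 of the 39 were of the first subset above and 1 was of the second. Hopx was at 107.5 in the first subset and at 249.9 in the second, and its part in the Hopx ratio was not tested.

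Of 42 cilium genes measured, 0 were at least 2-fold higher and 0 at least 2-fold lower in EGFP-positive cells, against 2.71% and 5.34% of 9444 features. The summed level was 19810 CPM in EGFP-positive and 21346 in EGFP-negative cells, a ratio of 0.928 (0.905 to 0.952). Deeper ependymal cells had a lower summed level, and compared within depth quartiles the ratio was 0.946. With at least 2 EGFP UMIs required it was 1.05. The median log2 ratio was -0.09, against 0.04 over all features, with 11 genes above 1 and 31 below. The intervals at both ends of the range left out 1. Ratios ran from 0.73 (0.636 to 0.834) for Cfap54, at 693.1 against 949.7, to 1.23 (1.07 to 1.42) for Foxj1, at 648.3 against 525.2. Tmem212 (0.936, 0.863 to 1.01) and Rsph1 (0.961, 0.838 to 1.1) had intervals that include 1. A cell without an EGFP UMI may still carry the virus, since cells positive for both reporters were enriched by sorting. EGFP RNA was also scarce (13.1 CPM in ependymal cells), so its detection depends on depth. The median depth was 6833 UMIs in EGFP-positive and 6157 in EGFP-negative cells. EGFP-negative therefore means only that no EGFP UMI was seen, and the ratios are not those of transduced against non-transduced cells.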

How the data were processed

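The authors deposited UMI counts, and the submitters' processing notes name Cell Ranger 8.0.1 and the GRCm39 build. The annotation version and whether intronic reads were counted are not given in the sources used here. Barcodes with under 500 genes or over 15% mitochondrial UMIs were removed. Doublets were kept and 261 Scrublet calls (expected rate 0.05, scanpy 1.11.5) removed as an alternative.

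Counts were summed per gate and divided by the gate's total. Intervals were exact (scipy 1.17.1, Python 3.11.15). A barcode in several gates stayed ungated. A gene counted as measured from 10 UMIs over the compared groups, or from 50 between sets of ependymal cells. Scripts were checked on simulated counts. Clusters used 2000 variable genes, 30 components, 15 neighbours and resolution 1.

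All regulators were named, with the 4 highest and the lowest ependymal gene of each other role, the extremes of the choroid plexus ratios, and genes past 2-fold within ependymal cells. Other genes named by level in a cell type were chosen after their values were seen. The genes, lists and gates were chosen with earlier results of these data known. Fam183b and Pifo, listed as ependymal markers, were not matched.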

Additional observations from a re-analysis of the deposited data

How the results depend on the processing

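The ratio of summed levels of ependymal to myeloid cells was 176.7 with Scrublet calls removed, 58.5 with clusters in place of gates, 117.3 with cells weighed equally, 143.6 with thinned cells and 143.3 per cell. For choroid plexus to myeloid cells these were 12.2, 4.29 and 8.09, with 17.0 per cell, and 9.15 without Rarres2 and Nnat barcodes. The count at least 4-fold higher was 17 with clusters. With clusters the summed ependymal and choroid plexus levels were 21314 and 1563.2 CPM, near those of the gates. For choroid plexus to ependymal cells the ratio was 0.0693 with Scrublet calls removed, 0.0689 with equal weights, 0.0666 thinned, 0.118 per cell and 0.0682 without Rarres2 and Nnat barcodes. Between the ependymal subsets, 0 genes were at least 2-fold higher with clusters, equal weights or thinning. In EGFP-positive cells 1 gene was at least 2-fold lower with the stricter ependymal gate (Tekt2) and 1 from 2 EGFP UMIs (Tekt4), where the summed ratio was 1.05, above 1. It was 0.968 with thinning. The summed ependymal level was 21588 with Scrublet calls removed, 21970 with equal weights, 21994 thinned and 21586 with the stricter gate. The choroid plexus level was 1495.1, 1514.3 and 1464.3 in the first 3 of these and 1446.6 without Rarres2 and Nnat barcodes. The causes were not tested. For single genes and the values of other gates, 1675 stayed within their range, 378 moved beyond it and 0 reversed. Ratios of Dnai2 to myeloid cells had no value with Scrublet calls removed or with thinning. No paired analysis was possible because there is 1 library, and no replicate could be left out. The neuron, mural, B and T or NK gates held 19 to 40 barcodes each.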

Other observations

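The 997 barcodes in no gate or in several had a median of 2622 UMIs and a summed level of the 43 genes of 2626.3 CPM (2578 to 2676). Their median barcode was at 131.1 CPM and the 95th percentile at 23062, and 124 of them were Scrublet calls. Barcodes near the ependymal gate held much of the total of 11099 UMIs: 58 with 3 or 4 UMIs of Rarres2 and at most 2 of C1qa had 3985, and 24 with more than 4 of Rarres2 but more than 2 of C1qa had 3518.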
